A study of Mus musculus with 4 samples.

Results

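Circadian clock and clock output genes were examined in the liver of 4 female F1 hybrid mice at 5 months of age. 2 mice had an MSM mother and a B6 father (MB replicates 1 and 2), and 2 had a B6 mother and an MSM father (BM replicates 1 and 2). B6 (C57BL/6J) and MSM (MSM/Ms) are inbred strains of different subspecies, so every mouse carried a chromosome set of each, no treatment is named, and the crosses were set up to differ in which parent gave which set. For each gene, poly(A) RNA sequencing gave an FPKM (fragments per kilobase of transcript, scaled to the mapped fragments of the library) and, where allele-specific reads allowed, a B6-allele frequency, the B6 share of the reads that SNPs assigned to either parent. The genes were chosen by name, as 10 well-known genes of the clock and its output. Of these, 9 were among the 8797 genes with values, namely Per1, Per2, Per3, Cry1, Nr1d1, Nr1d2, Dbp, Tef and Bhlhe40, and Arntl was not analysed here. 2 of the 9, Per3 and Bhlhe40, had a B6-allele frequency, as did 3632 of all genes. The lowest mean FPKM of any gene was 2.50, so genes at lower levels had no values, and Per2 (mean 2.62) and Cry1 (mean 2.92) lay just above it. The authors give a range of read pairs for the libraries. The values came without counts per gene, so the number of reads behind a single value is unknown. The median FPKM over all genes was 11.2 to 11.7 in the 4 mice, and 6 of 8 hepatocyte markers were measured, of which Ttr (transthyretin) stood at 2539 to 4526 FPKM. The time of day and the feeding state at tissue collection are not given in the sources used here, and their part in the values below was not tested.

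The clock of mammalian cells is a feedback loop of transcription. CLOCK and BMAL1, the product of Arntl, bind E-box sequences and activate the Per and Cry genes, whose proteins then repress CLOCK and BMAL1. The same pair of activators drives Nr1d1 and Nr1d2, which encode the REV-ERB nuclear receptors that repress Arntl, Cry1 and Nfil3 through the RORE sequence, and drives Dbp and Tef, which encode PAR bZIP factors that bind the D-box of output genes and of Per genes. In mouse liver these transcripts are known to cycle over the day and to peak one after the other, with Nr1d1 before Dbp and Dbp before Per1 and Per2, and many genes of metabolism cycle with them.

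The promoter sequences on which this loop acts were looked up for the 9 genes and for Ciart, which encodes a repressor of CLOCK and BMAL1, because their levels are compared below. RefSeq windows of GRCm38.p6 (250 bases before to 50 after a transcription start) were found for 7 of the 9 and for Ciart, and none for Per2 and Bhlhe40. On both strands, the E-box CACGTG, its variant CACGTT, the D-box as TTATGTAA or TTACGTAA, and the RORE core TAGGTCA were searched. Per1, Cry1, Tef and Ciart held the E-box, which 7.15% of all 32851 windows and 8.09% of the genes with a window hold. Per1 and Tef each had a window for a first and a second start. The E-box was in both windows of Tef, but only in the first of Per1. Per3 held 2 copies of the D-box, which is present in 1.06% of windows. Cry1 and Nr1d1 held the variant (4.68% of windows), the RORE core (2.61% of windows) was in none, and the windows of Dbp and Nr1d2 held none of these letters. Each line gives a match with 8 flanking bases, 5′ to 3′ on the strand of the gene, and capitals mark the motif. The variant match of Cry1 is not printed.
Per1 E-box, chr11:69098775-69098796, plus strand: cccaagtcCACGTGcagggatg
Cry1 E-box, chr10:85185101-85185122, minus strand: ccggtggtCACGTGgggtgcat
Nr1d1 E-box variant, chr11:98775392-98775413, minus strand: cagatctcAACGTGccggctgc
Tef E-box, first start, chr15:81802538-81802559, plus strand: tgtggctcCACGTGctgcagct
Tef E-box, second start, chr15:81811268-81811289, plus strand: tggcccagCACGTGtctacatc
Ciart E-box, farthest from the start, chr3:95882331-95882352, minus strand: tctagagtCACGTGttgccggt
Ciart E-box, middle, chr3:95882273-95882294, minus strand: gggggaggCACGTGcagaaccg
Ciart E-box, nearest to the start, chr3:95882259-95882280, minus strand: cagaaccgCACGTGtctgggag
Per3 D-box, farther from the start, chr4:151044855-151044878, minus strand: cccgcgcgTTATGTAAggtactcg
Per3 D-box, nearer to the start, chr4:151044808-151044831, minus strand: gcccgcggTTATGTAAcccccgcc
A match describes the letters of the B6 reference and is not a measured binding site. No sequence outside the windows was searched, so absence from a window does not show that a gene lacks the motif. Counted from the transcription start, the matches begin between position -205 (the farther Per3 D-box) and position -28 (the variant of Nr1d1), and that of Per1 begins at -166.

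The single mice differed widely in most of these genes, and in all but Nr1d1 the crosses overlapped. For each gene the range was taken as the highest minus the lowest mouse on the log2(FPKM + 1) scale, which understates the fold of genes with a low FPKM. The median range was 0.87 over the 9 clock genes and 0.33 over all 8797 genes. The range was at least 1 in Per1, Nr1d1 and Dbp, which are 3 of 9 clock genes, whereas 4.01% of all genes passed this limit. Per2 at 0.96 and Per3 at 0.87 were the genes just below it. Each mouse is a single sample, so a difference between 2 named mice has no replicate and no test.

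**Figure D1:**
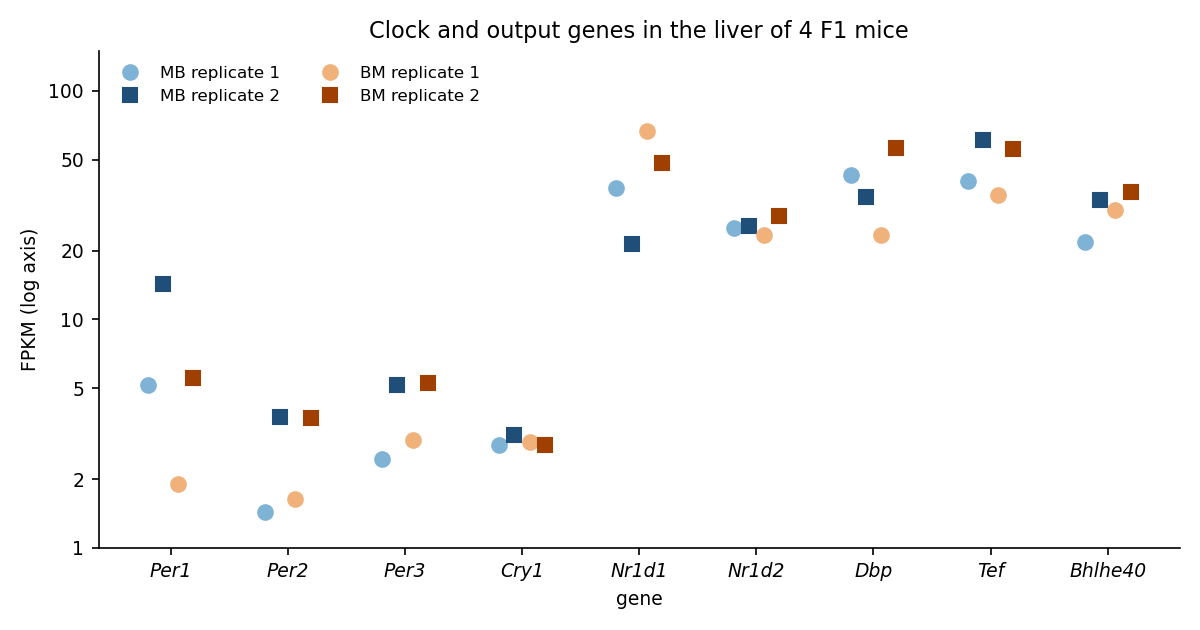
FPKM on a log axis of the 9 clock and output genes, with 1 point per mouse (blue, MSM mother and B6 father; orange, B6 mother and MSM father; circles, replicate 1; squares, replicate 2). Per1 spans 1.90 to 14.3 FPKM, while the 4 points of Cry1 lie between 2.83 and 3.12.

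Per1, Per2 and Per3 encode the PERIOD proteins, the repressive arm of the loop. Per1 was at 5.17 FPKM in MB replicate 1, 14.3 in MB replicate 2, 1.90 in BM replicate 1 and 5.53 in BM replicate 2. BM replicate 1 was thus the lowest and MB replicate 2 the highest, 7.54-fold apart, and the other 2 mice were nearly equal. The range of Per1, 2.40, was larger than that of 99.3% of all genes, and it was 1.17 without MB replicate 2 and 1.31 without BM replicate 1. Per2 was at 1.44 and 3.74 FPKM in MB replicates 1 and 2 and at 1.63 and 3.69 in BM replicates 1 and 2. Here the mice fell into a low and a high pair with 1 mouse of each cross in both. The low pair lay below 2.50 FPKM, the lowest mean of any gene with values, so only the high pair lifted Per2 above it. Per3 had the same 2 pairs, with 2.44 and 5.18 FPKM in the MB mice and 2.97 and 5.27 in the BM mice. In all 3 Per genes the mouse labelled replicate 2 was higher than replicate 1 in both crosses, by 2.77- and 2.91-fold for Per1, 2.60- and 2.26-fold for Per2, and 2.12- and 1.78-fold for Per3 (MB and BM). The number is only a label, and no source says that it marks a shared day or litter.

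Cry1, which encodes the cryptochrome that acts together with the PERIOD proteins, was almost level. It was at 2.83 and 3.12 FPKM in MB replicates 1 and 2 and at 2.90 and 2.83 in BM replicates 1 and 2. The highest mouse exceeded the lowest 1.10-fold, and only 4.67% of all genes had a smaller range than its 0.11. Its mean of 2.92 FPKM was close to that of Per2.

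Nr1d1 and Nr1d2 encode REV-ERB alpha and beta, nuclear receptors that repress the RORE arm of the loop. Nr1d1 was at 37.7 and 21.5 FPKM in MB replicates 1 and 2 and at 66.7 and 48.2 in BM replicates 1 and 2. It was the only one of the 9 genes in which the crosses did not overlap, with both BM mice above both MB mice. Of all genes, 42.4% had crosses that did not overlap, so 1 of 9 is below that share. MB replicate 2, the highest mouse for Per1, was the lowest for Nr1d1, and BM replicate 1, the lowest for Per1, was the highest, 3.10-fold apart. The range of Nr1d1 was 1.59, and it was 0.81 without MB replicate 2. Nr1d2 was at 25.2, 25.7, 23.5 and 28.3 FPKM in the same order of mice. Its highest mouse exceeded its lowest only 1.21-fold, and its range of 0.26 was below the median of all genes. Nr1d1 overlaps the gene of the thyroid hormone receptor alpha, Thra, by 1075 bases on the opposite strand of chromosome 11. The alignment used the strand of the library, but whether the count behind the FPKM did is not given. Thra was at 4.11 to 4.22 FPKM in the MB mice and at 5.18 to 5.34 in the BM mice. Its level was below that of Nr1d1, and like Nr1d1 it was higher in both BM mice. The part of the overlap in the values of Nr1d1 was not tested.

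Dbp and Tef encode PAR bZIP transcription factors, which activate output genes from the D-box, and Bhlhe40 encodes DEC1, a repressor that competes for the E-box. Dbp was at 43.0 and 34.3 FPKM in MB replicates 1 and 2 and at 23.4 and 56.4 in BM replicates 1 and 2. Both the lowest and the highest mouse were thus from the BM cross, 2.41-fold apart. The range of Dbp was 1.23, and it was 0.70 without BM replicate 1 and 0.85 without BM replicate 2, both below the limit of 1. Tef was at 40.3, 60.9, 35.0 and 55.7 FPKM in the same order, and the high pair was the one seen for Per2 and Per3. Bhlhe40 was at 21.7, 33.3, 30.0 and 36.1 FPKM, with MB replicate 1 apart below the others. Dbp overlaps the gene of sphingosine kinase 2, Sphk2, by 737 bases on the opposite strand, and Sphk2 ranged from 24.3 to 31.8 FPKM. Tef overlaps the antisense gene Gm17597 by 193 bases on the opposite strand, and Gm17597 was not analysed here.

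**Figure D2:**
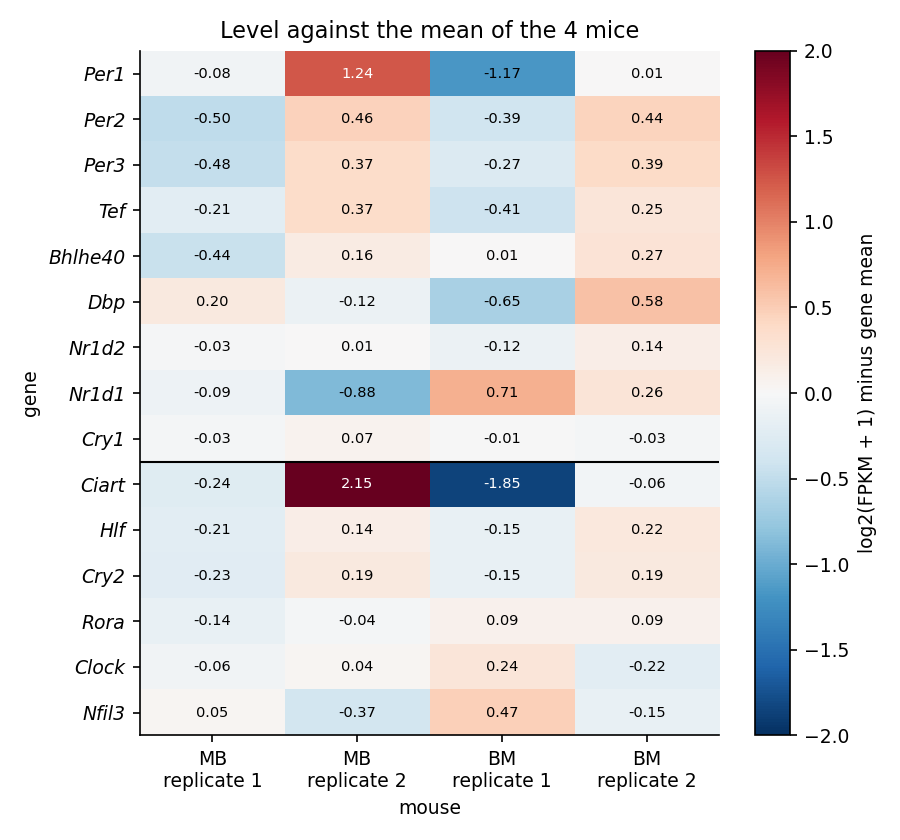
Level of the 9 genes (above the line) and of 6 other core clock genes (below it) in each mouse, as log2(FPKM + 1) minus the mean of the 4 mice, with red above and blue below the mean. MB replicate 2 has the highest value for Per1 (1.24) and Ciart (2.15) and the lowest for Nr1d1 (-0.88), and BM replicate 1 has the opposite signs.

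The genes therefore did not share a single order of mice. MB replicate 2 was the highest mouse for Per1, Per2, Cry1 and Tef, BM replicate 2 for Per3, Nr1d2, Dbp and Bhlhe40, and BM replicate 1 for Nr1d1. In 6 of the 9 genes replicate 2 was above replicate 1 in both crosses, and in Nr1d1 it was below in both. Over all genes these shares were 18.5% and 24.0%. Ratios between genes of a mouse do not depend on the scaling of its library. The ratio of Per1 to Nr1d1 FPKM was 0.137 and 0.666 in MB replicates 1 and 2 and 0.0285 and 0.115 in BM replicates 1 and 2. On the log2 scale this ratio ran from -5.13 in BM replicate 1 to -0.59 in MB replicate 2, with the other mice at -2.86 and -3.13. The log2 ratio of Dbp to Nr1d1 was lowest in BM replicate 1 as well (-1.51) and highest in MB replicate 2 (0.67), and it was 0.19 and 0.23 in the others. These ratios were chosen after the values were seen.

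**Figure D3:**
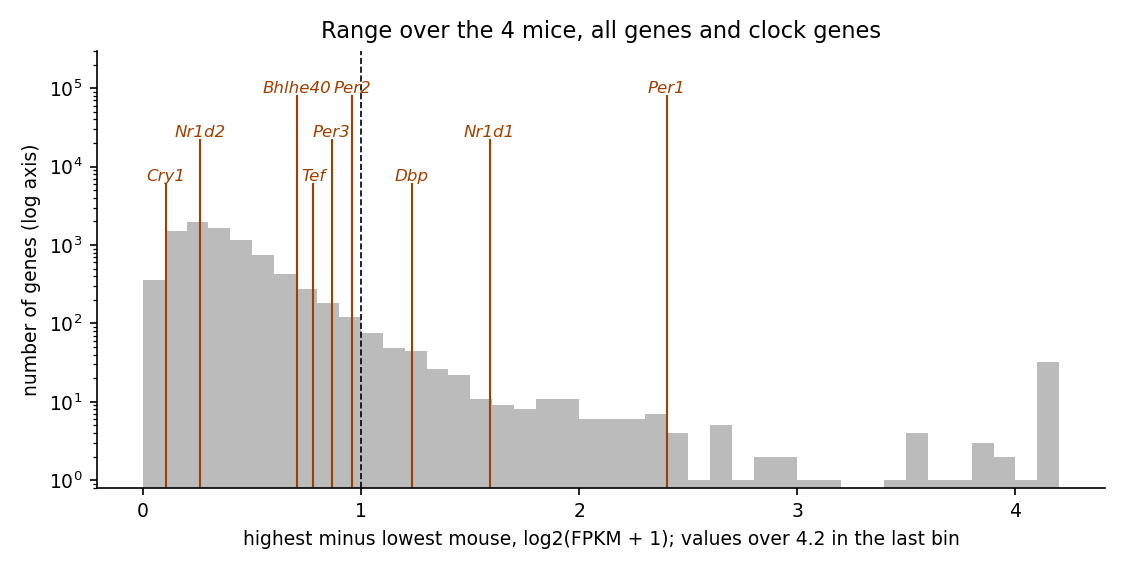
Number of genes (log axis) by range over the 4 mice, in log2(FPKM + 1), for all 8797 genes in gray, with the 9 clock genes as labelled lines and the limit of 1 dashed. Per1 (2.40), Nr1d1 (1.59) and Dbp (1.23) lie past the limit, and Cry1 (0.11) lies near the left end.

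Whether the clock genes differed between the reciprocal crosses was tested with limma on log2(FPKM + 1). None of the 9 passed a Benjamini-Hochberg adjusted p-value of 0.05, and of all genes 0.0455% (4 genes) did, all of them higher in BM. At an unadjusted p-value under 0.05, 1 of the 9 passed, against 8.87% of all genes. That gene was Nr1d1, which was lower in MB than in BM by a log2 difference of -0.97 (SE 0.29, limma adjusted p = 0.469). Its mean was 29.6 ± 11.4 FPKM in the MB mice and 57.5 ± 13.0 in the BM mice (SD, n = 2 each). An exact two-sided permutation test of 2 mice against 2 cannot go below p = 0.3333, which is the value for Nr1d1. Per1 had a larger log2 difference of 1.16 with a larger error (SE 0.53, limma adjusted p = 0.578), with means of 9.74 ± 6.47 FPKM in MB and 3.71 ± 2.57 in BM. Without 1 mouse the difference of Per1 was 0.50 (without MB replicate 2) to 1.82 (without MB replicate 1), and that of Nr1d1 was -1.36 (without MB replicate 1) to -0.58 (without MB replicate 2), and neither was called in any of these fits. For the other 7 genes the log2 difference lay between -0.28 (Bhlhe40) and 0.16 (Tef), with limma adjusted p-values of 0.692 to 0.978. In Per1, Per2, Per3, Nr1d2, Dbp and Tef the mice of each cross lay farther apart than the means of the crosses on the same scale.

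Per3 and Bhlhe40, the only 2 of these genes with a B6-allele frequency, leaned to the B6 allele in every mouse. Per3 lies on chromosome 4 from 151003652 to 151044665 and Bhlhe40 on chromosome 6 from 108660629 to 108666925 (mm10). The frequency of Per3 was 0.609 and 0.581 in MB replicates 1 and 2 and 0.640 and 0.600 in BM replicates 1 and 2. The mean was 0.607 ± 0.0247 (SD, n = 4 mice), and all 4 mice lay above 0.5. On the log2 odds scale the mean was 0.63 (SE 0.07, limma adjusted p = 0.0125), so the imbalance was larger than the spread between mice. The frequency of Bhlhe40 was 0.587, 0.638, 0.556 and 0.555 in the same order of mice, with a mean of 0.584 ± 0.0388 (SD, n = 4 mice). Its log2 odds of 0.49 (SE 0.07, limma adjusted p = 0.0210) also differed from 0. Imbalance of this kind was common, since 36.2% of the 3632 genes with a frequency were called and 22.6% toward B6, so 2 of 2 is a description of these genes only. The call of Per3 was lost without any single mouse, with limma adjusted p-values of 0.0578 to 0.0757. That of Bhlhe40 was kept without MB replicate 1 (limma adjusted p = 0.0489) and lost without MB replicate 2 (0.0588), BM replicate 1 (0.115) or BM replicate 2 (0.115).

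**Figure D4:**
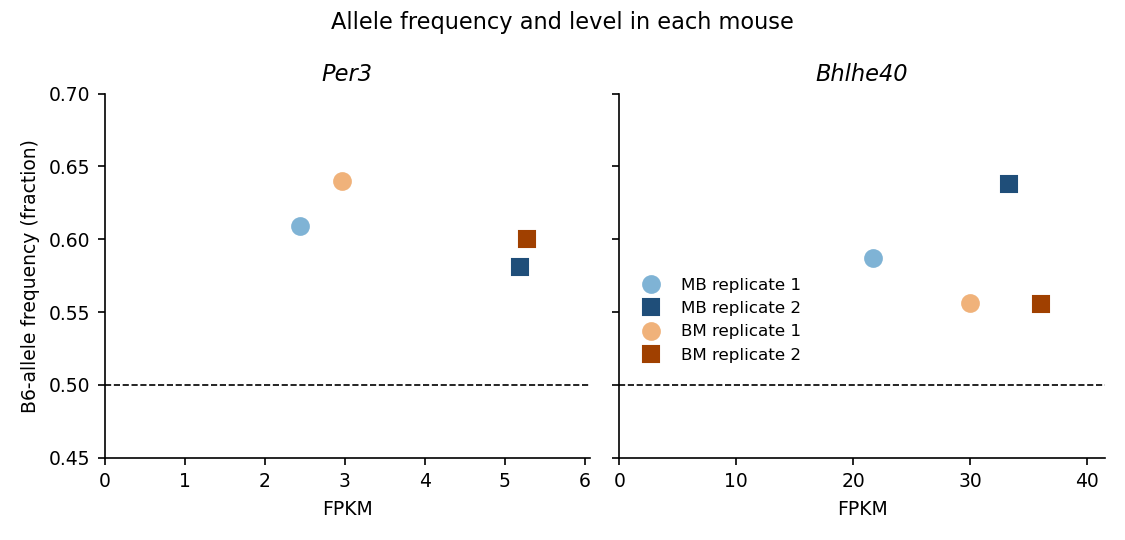
B6-allele frequency (fraction) against FPKM of Per3 and Bhlhe40, with 1 point per mouse and a dashed line at equal use of the alleles, 0.5. The 4 Per3 points lie between 0.581 and 0.640 while the FPKM varies from 2.44 to 5.27.

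No difference in the balance of the alleles between the crosses was called in either gene. The log2 odds of Per3 were lower in MB than in BM by -0.15 (SE 0.14, limma adjusted p = 0.913), and those of Bhlhe40 were higher by 0.34 (SE 0.15, limma adjusted p = 0.873). Of all genes, 0.0826% were called in this test, and neither gene passed an unadjusted p-value of 0.05, which 5.23% of all genes did. Within Per3, both mice with a high level had a lower frequency than the other mouse of their cross, a difference that was not tested. MB replicate 2 was at 5.18 FPKM and 0.581, against 2.44 FPKM and 0.609 in MB replicate 1. Bhlhe40 had its highest frequency in MB replicate 2 and nearly equal ones in the BM mice, at 30.0 and 36.1 FPKM. Per3 lies within the gene Camta1 on the same strand, and Camta1 was not analysed here, so reads of the 2 genes may not be told apart. Bhlhe40 overlaps the antisense gene 0610040F04Rik by 306 bases on the opposite strand, and that gene was not analysed here either.

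6 of 10 other core clock genes were measured. Ciart, which had 3 E-boxes in its promoter, varied most, with 3.85 and 24.5 FPKM in MB replicates 1 and 2 and 0.585 and 4.51 in BM replicates 1 and 2. Its order of mice was that of Per1, and the highest mouse exceeded the lowest 41.8-fold. C920021L13Rik, an antisense gene, covers all of Ciart on the opposite strand and was not analysed here. Nfil3, which encodes E4BP4, the repressor that competes with Dbp and Tef for the D-box, was at 6.96, 4.97, 9.68 and 5.95 FPKM in the same order of mice. Its lowest and highest mice were those of Nr1d1. Hlf, the third PAR bZIP gene, and Cry2 had the pairs of Per3, with 9.74 and 10.2 FPKM for Hlf in the replicate 1 mice and 12.7 and 13.4 in the replicate 2 mice (MB and BM). Clock ranged from 4.09 to 6.01 FPKM and Rora from 6.48 to 7.79. In limma none of the 6 was called between the crosses, and none had an unadjusted p-value under 0.05 (8.87% of all genes did). 1 of the 6, Ciart, passed a range of 1, as did 4.01% of all genes.

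The genes of the loop were also averaged by arm, with lists named for a sequence and not drawn from the promoter search above. In that search the RORE core was in no window, and Cry1, listed in the RORE arm, held the E-box. Over 10 measured genes of the E-box and D-box arm, the mean log2(FPKM + 1) was 3.67 and 4.27 in MB replicates 1 and 2 and 3.45 and 4.13 in BM replicates 1 and 2. Over 3 measured genes of the RORE arm (Cry1, Clock and Nfil3) it was 2.48, 2.41, 2.73 and 2.36 in the same order. The difference of the arms was therefore lowest in BM replicate 1 (0.72), next in MB replicate 1 (1.19), and higher in BM replicate 2 (1.77) and MB replicate 2 (1.86). The highest minus the lowest mouse of this difference was 1.14, and it was 0.60 when only the 9 genes named at the start were used, which leaves out Hlf, Ciart, Clock and Nfil3 and leaves Cry1 as the only gene of the RORE arm.

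The kinases, ubiquitin ligases and corepressors that act on clock proteins were described by the same range. Of 12 such genes 11 were measured, and their median range was 0.15, beside 0.33 over all genes. None reached 1 (4.01% of all genes did), and in limma none was called between the crosses or had an unadjusted p-value under 0.05 (8.87% of all genes did), which for 11 genes are counts near those shares. The ranges ran from 0.06 in Btrc, a ubiquitin ligase subunit that acts on PERIOD proteins, to 0.39 in Ncor1, a corepressor that acts with REV-ERB, and 60.9% of all genes had a smaller range than Ncor1. Csnk1d and Csnk1e, the casein kinases that phosphorylate PERIOD proteins, were at 19.6 to 24.3 and at 2.27 to 3.02 FPKM.

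Known outputs of the liver clock also varied widely between mice. Of 16 outputs 14 were measured, with a median range of 0.85, and 4 of the 14 had a range of at least 1 (4.01% of all genes). In each of these 4, MB replicate 2 was the highest and BM replicate 1 the lowest mouse, which was the case in 77 of the 353 genes with such a range (21.8%). This order was also that of Per1 and Tef among the 9, and of 8.31% of all genes. Alas1, the rate-limiting enzyme of heme synthesis, was at 107 and 310 FPKM in MB replicates 1 and 2 and at 25.0 and 56.6 in BM replicates 1 and 2. Usp2, which encodes a ubiquitin-specific protease, was at 13.6, 35.6, 4.88 and 16.3 FPKM in the same order. Nampt, which makes a precursor of NAD+, spanned 13.1 to 30.0 FPKM, and Cyp2b10, a drug-metabolizing cytochrome P450, 14.2 to 49.4. In Alas1 the crosses did not overlap, as in 42.4% of all genes. It was not called (log2 difference 2.24, SE 0.58, limma adjusted p = 0.432), and no other output was either. Unadjusted p-values under 0.05 were found for 3 of the 14, Alas1, Cyp7a1 and Avpr1a, and for 8.87% of all genes. Cyp2a4, Cyp2a5 and Cyp2b10 have similar copies, and their values are uncertain for this reason.

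**Figure D5:**
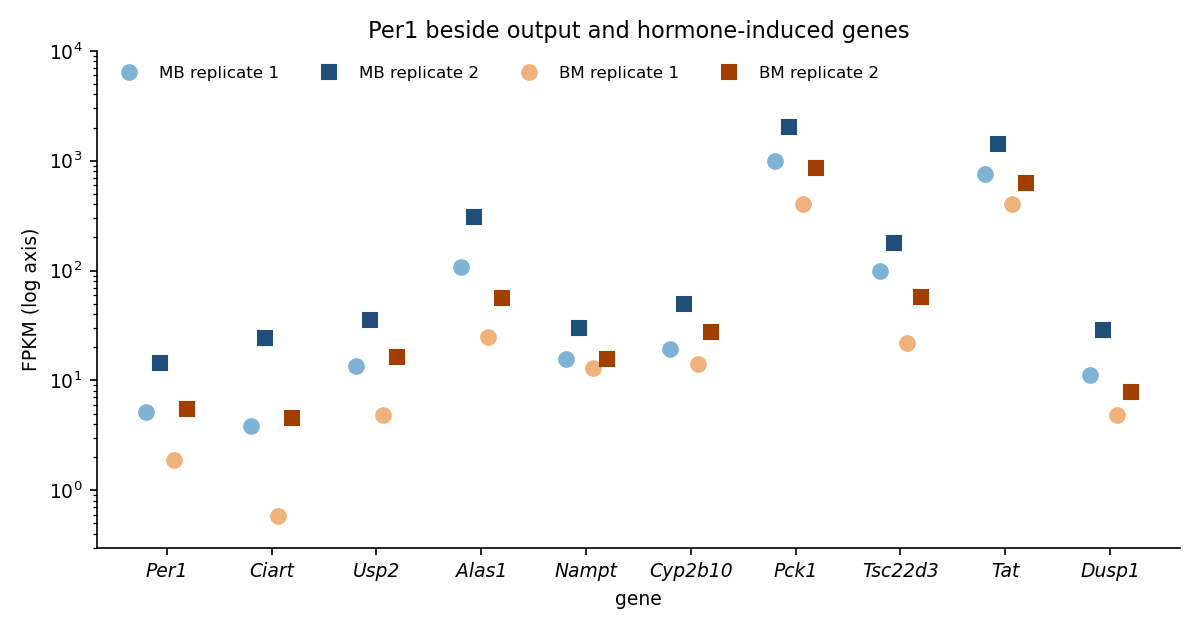
FPKM on a log axis in each mouse of Per1, Ciart, 4 outputs of the liver clock, and 4 genes from lists of fasting, glucocorticoid-induced and immediate early genes, picked after the values were seen as genes with a range of at least 1 in which MB replicate 2 is the highest and BM replicate 1 the lowest mouse. Ciart spans 0.585 to 24.5 FPKM and Alas1 25.0 to 310 FPKM.

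The genes with the profile most like that of a clock gene were found by the Euclidean distance between centred log2(FPKM + 1) values over the 4 mice, with 5 as the lowest mean FPKM allowed. This is a description over 4 mice only. The values were not scaled to their spread, so a near gene has a range similar to that of the clock gene by the choice itself. Nearest to Per1 were 1810055G02Rik (distance 0.17), Tsku (0.22), Pck1 (0.23), Usp2 (0.27) and Slc25a25 (0.31), all of them with ranges over 2. Pck1, the enzyme that commits carbon to glucose production, was at 990 and 2045 FPKM in MB replicates 1 and 2 and at 405 and 852 in BM replicates 1 and 2. Nearest to Nr1d1 were Lars2 (0.12), Irf1 (0.22), Rnf186 (0.25), Chka (0.27) and Bcl3 (0.30). Lars2, a mitochondrial leucyl-tRNA synthetase, was at 135, 73.0, 248 and 174 FPKM in the same order. Nearest to Dbp were Mir692-2a (0.26), G0s2 (0.31), Rps27rt (0.37), Mir692-2b (0.41) and Fam102a (0.42), where G0s2 encodes an inhibitor of lipolysis and was at 56.2, 36.8, 33.5 and 65.1 FPKM. The values of the Mir692 genes and of Rps27rt are uncertain, since they belong to families of similar copies. Nearest to the level profile of Cry1 were Zfp513, Ddx54, Smn1, Cttn and Opa1, all with ranges of 0.09 to 0.12.

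Markers of other cells were looked at beside these values. The erythroid markers varied widely, with 5 of 6 measured and 4 of them past a range of 1, which 4.01% of all genes passed. Their summed FPKM was 580 and 218 in MB replicates 1 and 2 and 1216 and 658 in BM replicates 1 and 2. BM replicate 1, the lowest mouse for Per1, thus had the highest sum, and in both crosses the sum was lower in replicate 2. Hba-a1, Hba-a2, Hbb-b1 and Alas2 were each highest in BM replicate 1 and lower in replicate 2 of both crosses. Hbb-bs went the other way, at 2.13 and 3.02 FPKM in MB replicates 1 and 2 and 14.3 and 23.1 in BM replicates 1 and 2. The defining marker Alas2 was at 4.67 to 8.69 FPKM. The summed FPKM of 6 of 8 Kupffer cell markers was 199 to 235 in MB and 257 to 284 in BM. That of 7 of 7 sinusoidal endothelial markers was 167 to 187 and 187 to 200, and that of 5 of 6 stellate cell markers 235 to 256 and 219 to 244. 1 of 5 cholangiocyte markers and 0 of 6 lymphocyte markers were measured, and none of the measured markers was at 0 in any mouse. In bulk liver, fewer cells of a type and less RNA per cell cannot be told apart, and the part of other cells in the clock gene values was not tested.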

How the data were processed

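The authors sequenced poly(A) RNA of 4 livers, 1 library per mouse, trimmed the reads (Trim Galore!) and mapped them by strand to an mm10 genome with N at SNP positions (Tophat2), keeping 1 alignment per read. Versions are not given in the sources used here. The deposited FPKM values are scaled to transcript length and mapped fragments, and the deposited fraction is the B6-allele frequency, for which the authors split the reads with SNPsplit and counted them with Cuffdiff. No counts were used, so precision came from the spread between mice.

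From these values, limma 3.58.1 in R 4.3.3 was run on all genes in single models with cross as a term and no replicate block. Expression was tested on log2(FPKM + 1) with a variance trend, and all 8797 genes reached the required mean FPKM of 1. Frequencies were limited to 0.01 to 0.99 and tested as log2 odds, against 0 for imbalance and between the crosses. All tests were two-sided, and p-values were adjusted over all genes by the Benjamini-Hochberg method (threshold 0.05). p-values measure only the spread between these mice. In simulated data with 200 changed genes, the expression test called 179 of 200 at a log2 difference of 2 and 4 others. That difference is larger than those of the clock genes named at the start, among which Per1 (1.16) and Nr1d1 (-0.97) had the largest. The share recovered therefore does not show how often differences of their size would be called. Positions came from GENCODE M21 and promoter windows from RefSeq. Tables were handled in Python 3.11.15 with pandas 2.3.3 and plotted with matplotlib 3.10.9.

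The clock genes and the gene lists were chosen with earlier results of these data known. Named genes were all measured clock genes, the genes of the lists called by limma or with a range of at least 1, and the 5 nearest profiles of Dbp and of Cry1, which took the place of Arntl. The other core clock genes and modifiers, genes overlapping a clock gene, outputs with an unadjusted p-value under 0.05, the profiles of Per1 and Nr1d1, single marker genes and the ratios to Nr1d1 were added after their values were seen. The ratio of Dbp to Arntl was not computed, and 1 gene of the lists is not reported here. Alternatives were other pseudocounts, filters, scalings and limits, the replicate number as a block, and leaving out single mice.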

Additional observations from a re-analysis of the deposited data

How the results depend on the processing

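Over pseudocounts, filters and scalings, the number of genes called between the crosses in expression stayed at 4. With the replicate number as a block it was 285, in a fit with 1 residual degree of freedom per gene, and without 1 mouse it was 13 to 23. The number of genes with allelic imbalance (1316) became 775 with the block and 181 to 514 without 1 mouse, and that of genes with a frequency differing between the crosses (3) became 1 with wider limits on the frequency and 0 to 6 without 1 mouse. The number of genes with a range of at least 1 (353) was 200 to 306 without 1 mouse, lowest without BM replicate 1, and 2106 for a range of at least 0.5, a limit added after the values were seen. At that limit 7 of the 9 clock genes passed, in place of 3. With a pseudocount of 0.1 there were 5 at a limit of 1, beside 450 of all 8797 genes. Without 1 mouse 2 to 3 of the 9 passed.

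Deviations from the cross mean correlated between the mice labelled replicate 1 with r of 0.00375 over 8797 genes. A factor that moves only some genes could leave this value near 0. Whether the replicate number marks anything shared was not tested. With the replicate block, Per1 (log2 difference 1.16, limma adjusted p = 3.6e-07) and Nr1d1 (-0.97, limma adjusted p = 8.7e-04) were called between the crosses, and the imbalance of Bhlhe40 was not (log2 odds 0.49, limma adjusted p = 0.0558). It moved no other call among the 9 genes. Without 1 mouse, the limma difference between the crosses changed sign in 7 genes, none of them called. It ran from -0.53 to 0.43 for Per2, -0.54 to 0.31 for Per3, -0.54 to 0.69 for Dbp, -0.58 to 0.017 for Bhlhe40, -0.17 to 0.49 for Tef, -0.011 to 0.093 for Cry1 and -0.15 to 0.11 for Nr1d2. When a single mouse is left in a cross, it is assumed to vary like the others. The range of Bhlhe40 was 0.26 without MB replicate 1, that of Nr1d2 0.13 without BM replicate 2 and that of Cry1 0.025 without MB replicate 2. The cause of these changes was not tested. The number of reads behind each single value is unknown, which limits Per2, Per3 and Cry1 most, as the genes with the lowest FPKM.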

Other observations

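Genes that respond to hormones and feeding also varied between the mice. Of 7 glucocorticoid-induced genes, all measured, 4 had a range of at least 1 on the log2(FPKM + 1) scale, where 4.01% of all genes did. Tsc22d3, which encodes the glucocorticoid-induced leucine zipper protein, was at 100 and 178 FPKM in MB replicates 1 and 2 and at 22.0 and 58.0 in BM replicates 1 and 2. Tat, tyrosine aminotransferase, was at 749, 1424, 403 and 625 FPKM in the same order of mice. Fkbp5 was highest in MB replicate 2 too, at 83.0 FPKM against 21.7 to 33.2 in the other mice, and Zbtb16 was at 6.93 FPKM there against 0.770 to 2.46. No gene with a mean below 2.50 FPKM had values. Zbtb16 (mean 2.98) was above that level in MB replicate 2 only, so its being measured depends on that mouse. Mt1 and Mt2, the metallothioneins, had ranges of 0.58 and 0.33. None of the 7 was called between the crosses in limma, and 3 had an unadjusted p-value under 0.05, beside 8.87% of all genes.

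Of 9 genes induced by fasting 7 were measured. A range of at least 1 was found in 4 of them, Pck1, Igfbp1, Angptl4 and G6pc, and in 4.01% of all genes. In all 4, BM replicate 1 was the lowest and MB replicate 2 the highest mouse, an order that 21.8% of the 353 genes with such a range had. Of 9 genes of the fed state 8 were measured, and 4 had a range of at least 1 (4.01% of all genes did). These 4 had different orders. Srebf1, the regulator of fatty acid synthesis genes, was at 33.4 and 52.5 FPKM in the MB mice and at 80.0 and 100 in the BM mice, Fasn was higher in both BM mice, and Scd1 and Thrsp were higher in both MB mice. Crosses that did not overlap, as in Srebf1, Fasn, Scd1 and Thrsp, were found in 42.4% of all genes. No gene of either list was called between the crosses in limma. An unadjusted p-value under 0.05 was found for 2 of the 7 and 4 of the 8, and for 8.87% of all genes. Among 5 of 10 immediate early genes that were measured, Egr1 was highest in BM replicate 1 (16.6 FPKM, against 1.83 to 5.71 in the others), Dusp1 in MB replicate 2 (28.7 FPKM) and Jun in MB replicate 2 (8.69 FPKM). None of the 5 was called in limma, and 3 had an unadjusted p-value under 0.05, beside 8.87% of all genes. Of 8 heat shock and cold-inducible genes 6 were measured. Only Rbm3, a cold-inducible RNA-binding protein, passed a range of 1 (4.01% of all genes did). It was at 17.4 and 25.5 FPKM in MB replicates 1 and 2 and 9.99 and 17.7 in BM replicates 1 and 2. None of the 6 was called or had an unadjusted p-value under 0.05 in limma, where 8.87% of all genes had one. Of 6 hepatocyte markers, only Apoc3 passed a range of 1 (4.01% of all genes did), from 3956 to 8046 FPKM.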
